A study of Mus musculus with 8 samples.

Results

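The messenger RNAs of 58 genes were followed in macrophages with and without *Phgdh*, the gene of the first enzyme of de novo serine synthesis. They encode part of the spliceosome, the *Lsm* proteins and the SR and hnRNP families of RNA-binding proteins. The set is not the whole spliceosome, and splicing genes outside it are described further below. The genes were chosen only by the symbol that the deposited table gives, from the 18635 genes measured. They comprise 20 hnRNP genes, 10 SR protein genes (*Srsf* with a number), 9 genes of the SF3a and SF3b complexes, 11 *Snrp* genes and 8 *Lsm* genes from *Lsm1* to *Lsm8*, and the rule left out pseudogene names and *Snrpn*. All 58 passed the filter on low values.

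The cells were bone marrow-derived macrophages (BMDMs) from C57BL/6 mice aged 6 to 8 weeks, differentiated in L929-conditioned medium for 7 days and then kept for 24 h in medium conditioned by the mouse mesothelioma line AE17 (AE17-TCM). Macrophages treated in this way are called tumor-educated macrophages (TEMs). The RNA-seq data cover 4 floxed control samples (*Phgdh* fl/fl), which carry the floxed alleles but no Cre and which the submitters also label WT, and 4 Cre samples (*Phgdh* fl/fl *Cx3cr1*-Cre) from littermates. Cre is expressed there from 1 allele of *Cx3cr1*, so the loss of *Phgdh* and the altered *Cx3cr1* allele cannot be told apart by this comparison.

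An intron is removed from a pre-mRNA by the spliceosome, which is built from small nuclear RNAs and their proteins. The U1 and U2 particles mark the ends of the intron first, each on a ring of Sm proteins, and the SF3a and SF3b complexes hold U2 at the branch point. SR proteins bind exons and recruit these particles, whereas hnRNPs coat the transcript and often act against SR proteins. In macrophages, as in other cells, hnRNPs also take part in the export and decay of mRNA, including that of cytokine transcripts with AU-rich elements.

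Between 38219563 and 47027420 reads were counted on genes per library, with the Cre libraries reaching at most 44149669. *Phgdh* had 119, 129, 117 and 105 normalized counts in the floxed controls and 32.6, 35.3, 14.2 and 26.3 in the Cre samples, a log2 fold change of -2.15 ± 0.21 (SE, limma, adjusted p = 5.09e-08). Its groups did not overlap (exact two-sided permutation test, p = 0.0286, n = 4 per group, the smallest p that 4 against 4 allows). All 8 macrophage markers examined were present. Their summed normalized counts were 997251 to 1085916 in the floxed controls and 986316 to 1061737 in the Cre samples. *Lyz2* made up most of these sums, with means of 719688 and 705962. Of the 8, 3 were called lower, *Fcgr1* (log2 fold change -0.40), *Itgam* (-0.19) and *Adgre1* (-0.084), and 1 was called higher, *Mrc1* (0.28). Among markers of other cells, the T and NK cell genes *Lck* and *Cd2* summed to at most 45.0 normalized counts. Of the B cell genes, *Ms4a1* averaged at most 1.96. *Cd79b* had 231 ± 25.6 in the controls and 149 ± 16.2 in the Cre samples (SD, n = 4 per group) and was called lower (limma, adjusted p = 2.93e-05). The granulocyte gene *S100a8* had 527 ± 47.9 in the controls and 617 ± 27.3 in the Cre samples (SD, n = 4 per group) and was called higher (limma, adjusted p = 0.0044). *Prtn3* averaged at most 10.1.

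Most of the splicing genes were lower in the Cre samples. Of the 58, 44 were called lower, 2 were called higher and 12 were not called, where a call is an adjusted p under 0.05 from limma over all 13629 genes tested. Over all tested genes, 20.3% were called lower and 20.8% higher. The Cre libraries lay entirely below the floxed controls in 34 of the 58 and entirely above them in 2, against 18.2% and 18.4% of all tested genes. The median log2 fold change, given throughout as Cre minus floxed, was -0.16 over the 58 and -0.0018 over all tested genes, and 53 of the 58 had a value below 0. The shifts were small, the strongest being a fall by 23.7% of the mean.

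**Figure D1:**
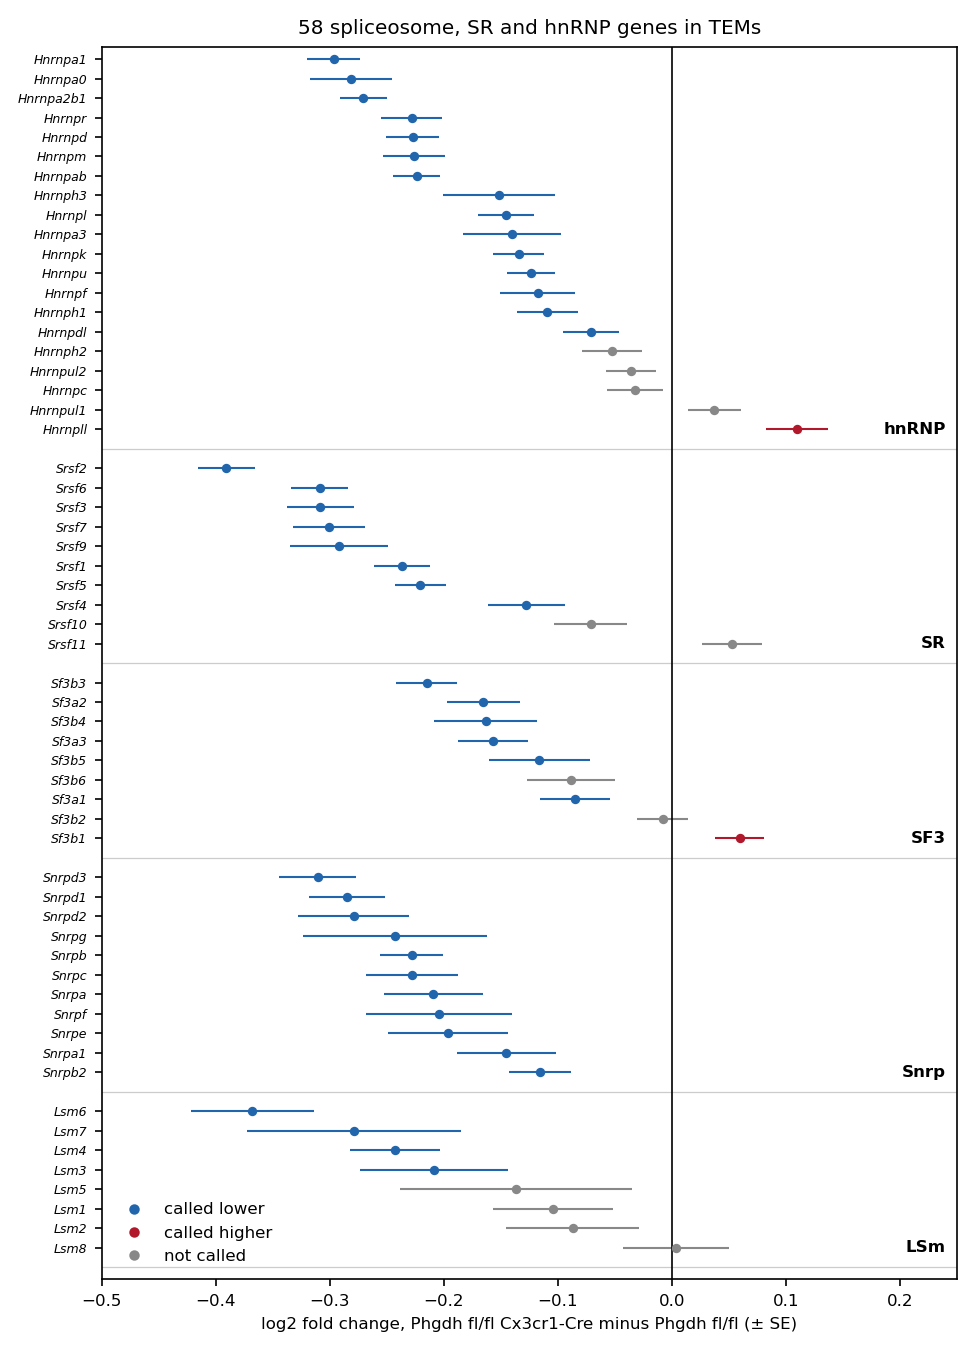
Log2 fold change (x axis, Cre minus floxed control) of each of the 58 genes, grouped by family on the y axis. Points are limma estimates, bars are standard errors, blue marks genes called lower, red those called higher and grey those not called. *Srsf2* lies farthest to the left at -0.39 and *Hnrnpll* farthest to the right at 0.11.

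Every family had members called lower. All 11 *Snrp* genes, 8 of 10 SR genes, 15 of 20 hnRNP genes, 6 of 9 SF3 genes and 4 of 8 *Lsm* genes were called lower. The family medians of the log2 fold change were -0.26 for SR, -0.23 for *Snrp*, -0.17 for *Lsm*, -0.14 for hnRNP and -0.12 for SF3 genes. Whether these medians differ from each other was not tested. Levels per length differed widely, with median FPKM in the floxed controls, computed from the recovered reads, of 36.3 for hnRNP, 21.5 for SR, 14.6 for *Snrp*, 14.0 for SF3 and 4.17 for *Lsm* genes.

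Together the 58 genes took 0.732% ± 0.008 (SD, n = 4) of the reads in the floxed controls and 0.668% ± 0.003 in the Cre samples. The hnRNP share was 0.464% ± 0.006 against 0.423% ± 0.002, and the SR share 0.122% ± 0.001 against 0.107% ± 0.001. For SF3 genes the shares were 0.0909% ± 0.0007 and 0.0896% ± 0.0006, and here the ranges of the groups overlapped. In every library the median of the 58 genes told the groups apart, at -0.020 to 0.0067 log2 units from the floxed mean in the controls and at -0.19 to -0.15 in the Cre samples.

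**Figure D2:**
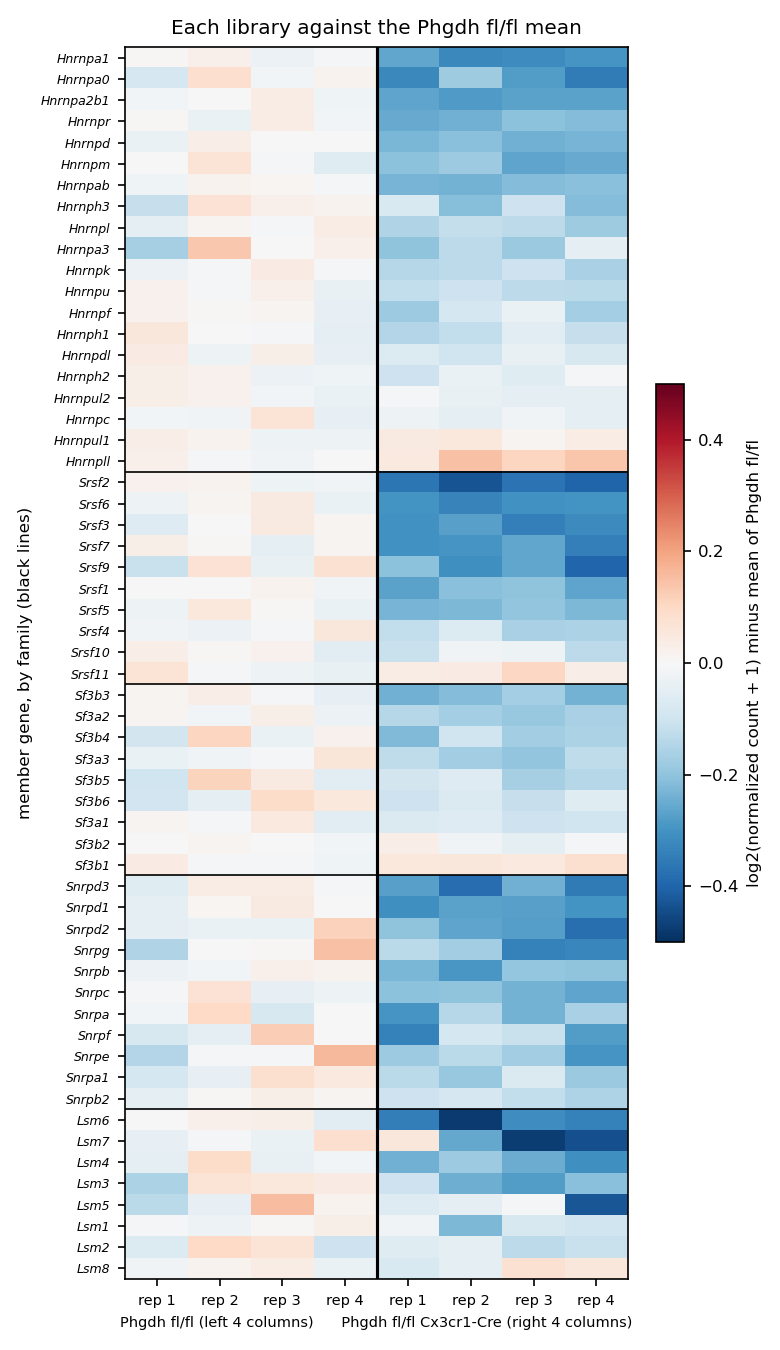
Log2(normalized count + 1) of each gene (rows, by family) in each library (columns, 4 floxed controls on the left and 4 Cre samples on the right) minus the mean of the floxed controls. Blue is lower and red higher. The Cre columns are mostly blue, and the rows of *Hnrnpll*, *Hnrnpul1*, *Srsf11* and *Sf3b1* are red in all 4 of them.

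The hnRNP A/B proteins, which bind purine-rich and AU-rich RNA and often silence exons, included the lowest values of their family. *Hnrnpa3*, another A/B protein, had a log2 fold change of only -0.14 and overlapping groups. *Hnrnpa1*, an abundant splicing repressor, had 8755, 8870, 8535 and 8681 normalized counts in the floxed controls and 7279, 6973, 7006 and 7104 in the Cre samples. The lowest control lay well above the highest Cre library, and the log2 fold change was -0.30 ± 0.02 (SE, limma, adjusted p = 1.91e-09). *Hnrnpa2b1*, its close relative, was the hnRNP gene with the most reads, at 30576, 30827, 31667 and 30443 against 25698, 25400, 25638 and 25624, again without overlap (log2 fold change -0.27 ± 0.02, limma, adjusted p = 1.34e-09). *Hnrnpa0*, known to bind AU-rich cytokine mRNAs in macrophages, fell by 17.7%, from 5006 ± 243 to 4119 ± 217 (SD, n = 4 per group), with a log2 fold change of -0.28. *Hnrnpab* stood highest of the family per length, at 112 FPKM in the controls and 96.5 in the Cre samples, and its log2 fold change was -0.22 (limma, adjusted p = 2.66e-08).

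The rest of the family ranged more widely, and members beyond those picked by the naming rule are named here after their values were seen. *Hnrnpr*, *Hnrnpd* (AUF1, a factor in the decay of AU-rich mRNA) and *Hnrnpm* had log2 fold changes of -0.23 each, with separate groups. *Hnrnpl*, *Hnrnpk*, *Hnrnpu* and *Hnrnph1* also fell without overlap, by between 0.11 and 0.15 on the log2 scale. *Hnrnph3*, *Hnrnpa3*, *Hnrnpf* and *Hnrnpdl* were called lower with overlapping groups, and the calls of *Hnrnph3*, *Hnrnpa3* and *Hnrnpdl* were each lost when single libraries were left out. The call of *Hnrnpf* was lost without the GC content and length trend (limma, adjusted p = 0.0528). *Hnrnph2*, *Hnrnpul2* and *Hnrnpc*, which binds uridine tracts, were not called, with log2 fold changes of -0.052, -0.036 and -0.033. *Hnrnpul1* had a mean of 7529 ± 160 in the controls and 7724 ± 87.1 in the Cre samples and was not called (limma, adjusted p = 0.214).

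*Hnrnpll*, best known for the alternative splicing of *Ptprc* (CD45) in lymphocytes, was called higher. It lies on chr17:80029487-80062334 (GRCm38, minus strand) and had 3548, 3463, 3443 and 3492 normalized counts in the floxed controls and 3611, 3854, 3752 and 3835 in the Cre samples. All 4 Cre values exceeded the highest control, and the log2 fold change was 0.11 ± 0.03 (SE, limma, adjusted p = 0.00263). The call did not hold once the trend of each library with GC content and exon length was removed (log2 fold change 0.016, limma, adjusted p = 0.661). Its paralog *Hnrnpl* fell by 0.15 on the log2 scale, so the log2 ratio of *Hnrnpl* to *Hnrnpll* was 1.12 ± 0.05 (SD, n = 4) in the controls and 0.87 ± 0.05 in the Cre samples, without overlap.

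Among the SR proteins, *Srsf2* (SC35), which binds exonic enhancers and also acts in transcription, had the lowest log2 fold change of all 58 genes. It lies on chr11:116849901-116853094 (GRCm38, minus strand). Its normalized counts were 5967, 5949, 5779 and 5806 in the floxed controls and 4573, 4352, 4547 and 4449 in the Cre samples. The gap between the groups was several times the spread within either, and the log2 fold change was -0.39 ± 0.02 (SE, limma, adjusted p = 8.43e-11). The exons of *Srsf2* overlap those of *Mettl23* and *Mfsd11* on the other strand, and the strand setting of the counting is not given in the sources used here. Neither neighbour was called, with log2 fold changes of -0.059 and -0.015. The same limit holds for other members: exons of 15 of the 58 genes, *Srsf2* included, overlap a measured gene on the other strand. Those of *Hnrnpm* overlap *Marchf2* on the same strand.

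*Srsf6* and *Srsf3* followed, both at -0.31. *Srsf6* had 5610, 5776, 5897 and 5582 normalized counts against 4642, 4531, 4633 and 4646 (limma, adjusted p = 3.34e-09), and *Srsf3*, an adaptor for mRNA export, went from 3285 ± 105 to 2652 ± 53.4 (SD, n = 4 per group). *Srsf7*, the closest relative of *Srsf3* and likewise an export adaptor, had a log2 fold change of -0.30, and *Srsf9* of -0.29. *Srsf1*, the founding SR protein, fell by 15.1% of its mean (log2 fold change -0.24, limma, adjusted p = 1.24e-07). *Srsf5* had the highest level per length of the SR genes, at 94.1 FPKM in the controls and 81.6 in the Cre samples (log2 fold change -0.22). In these genes, and in *Srsf4* at -0.13, every Cre library was below every floxed control.

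The remaining SR genes were not called. *Srsf10*, an SR protein known to repress splicing when dephosphorylated, had 2778, 2724, 2752 and 2607 normalized counts in the controls and 2515, 2678, 2669 and 2478 in the Cre samples, with overlapping groups (log2 fold change -0.071, limma, adjusted p = 0.0835). *Srsf11* had a mean of 7047 ± 232 in the controls and 7309 ± 173 in the Cre samples (log2 fold change 0.053, limma, adjusted p = 0.117), and its groups overlapped through the first control at 7382. Other settings did call these genes. *Srsf10* was called lower without the GC content and length trend (limma, adjusted p = 0.0028) and without floxed replicate 4 (limma, adjusted p = 0.0411). *Srsf11* was called higher with scaling to total reads (limma, adjusted p = 0.0486) and without floxed replicate 1 (limma, adjusted p = 0.0113).

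**Figure D3:**
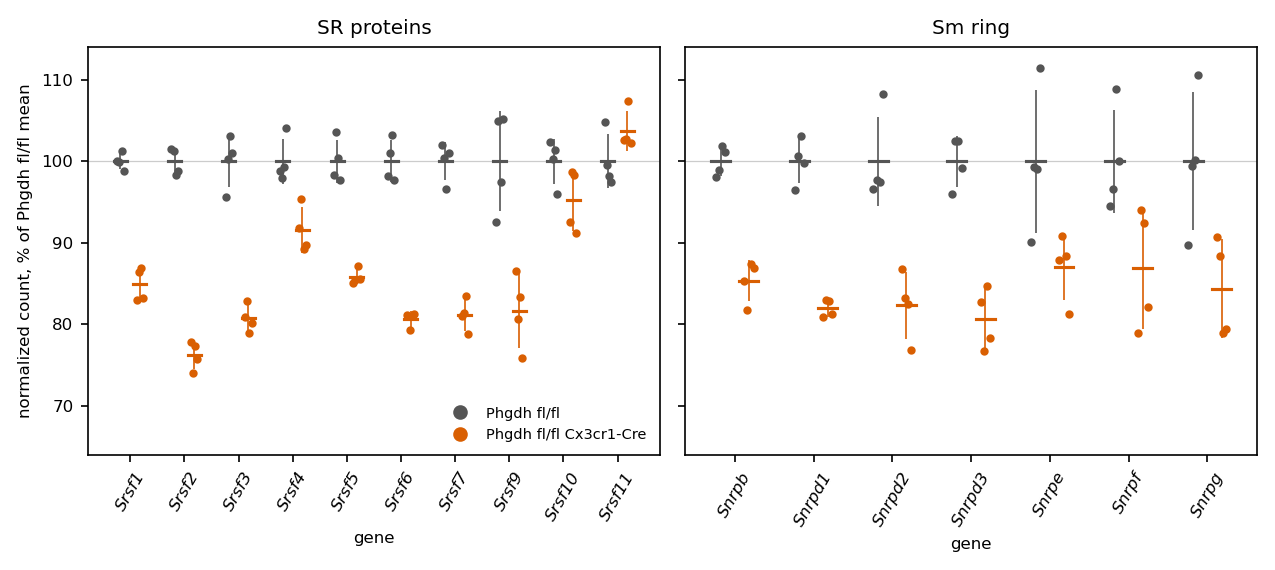
Normalized counts of the 10 SR genes (left) and of the 7 Sm ring genes (right) in each library, as a percentage of the floxed mean of the gene (y axis, not starting at 0). Grey points are the 4 floxed controls, orange points the 4 Cre samples, horizontal lines the means and vertical lines the SD. Apart from *Srsf10*, *Srsf11*, *Snrpe* and *Snrpg*, every orange point of a gene lies below every grey one.

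The Sm ring, the core shared by the U1, U2, U4 and U5 particles, was lower in all 7 of its genes, with log2 fold changes from -0.31 to -0.20. *Snrpd3* had 2745, 2932, 2932 and 2838 normalized counts in the floxed controls and 2368, 2196, 2425 and 2242 in the Cre samples. No Cre library reached the lowest control, and the log2 fold change was -0.31 ± 0.03 (SE, limma, adjusted p = 2.75e-07). *Snrpd1*, its partner *Snrpd2* and *Snrpb* fell by 0.29, 0.28 and 0.23 on the log2 scale, *Snrpb* being the highest of the family per length at 51.0 FPKM in the controls and 44.0 in the Cre samples. The smaller subunits *Snrpe*, *Snrpf* and *Snrpg* had fewer reads and wider errors, with log2 fold changes of -0.20 ± 0.05, -0.20 ± 0.06 and -0.24 ± 0.08 (SE). The groups of *Snrpe* and *Snrpg* overlapped, and the calls of *Snrpf* and *Snrpg* were lost without the GC content and length trend and without several single libraries. *Snrpg* and *Snrpe* also have annotated pseudogene copies whose reads came to 8.76% and 6.24% of their own. These were the highest such shares of the 58 genes. They hold only reads counted on the copies that were measured, so they do not bound the error in genes with copies. *Hnrnpa3* and *Hnrnpa1* have 34 and 17 annotated copies, at up to 100% identity.

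The proteins specific to U1 and U2 were lower too. *Snrpc* and *Snrpa*, which sit on the U1 particle that pairs with the start of the intron, had log2 fold changes of -0.23 and -0.21 with separate groups. *Snrpa1* and *Snrpb2* bind each other on the U2 particle and had -0.15 and -0.12. *Snrpa1* ranged from 1107 to 1246 normalized counts in the controls and from 1033 to 1121 in the Cre samples, and *Snrpb2* from 3625 to 3827 and from 3362 to 3538. The first pair of ranges overlaps and the second does not.

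The subunits of SF3a and SF3b gave mixed values. The 3 SF3a genes were called lower, *Sf3a2* and *Sf3a3* at -0.17 and -0.16 and *Sf3a1* at -0.085, the last a call lost under DESeq2 and with scaling to total reads (adjusted p over the 9 other settings between 0.00630 and 0.0719). The call of *Sf3a1* was kept in 5 of 8 fits that left out a library (limma, adjusted p up to 0.0990). In SF3b, *Sf3b3*, the scaffold subunit, had 4248, 4309, 4197 and 4099 normalized counts in the floxed controls and 3570, 3621, 3748 and 3577 in the Cre samples. The groups were far apart, with a log2 fold change of -0.22 ± 0.03 (SE, limma, adjusted p = 1.35e-06). *Sf3b4*, which contacts the transcript upstream of the branch point, had -0.16 and lies 2.14 Mb from *Phgdh* on chromosome 3. *Sf3b5* was called lower at -0.12 with overlapping groups (limma, adjusted p = 0.0408) and kept that call in 3 of 8 fits that left out a library. Its call was also lost under DESeq2, with scaling to total reads and without the GC content and length trend. *Sf3b6*, which touches the branch point adenosine, was not called (log2 fold change -0.089, limma, adjusted p = 0.0726). It was called lower without floxed replicate 1 (limma, adjusted p = 0.0088).

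*Sf3b1*, the largest SF3b subunit and the clamp around the branch point, was called higher. It lies on chr1:54985169-55027481 (GRCm38, minus strand) and had 14667, 14133, 14154 and 14025 normalized counts in the controls and 14790, 14804, 14715 and 15056 in the Cre samples. The groups were separate by a narrow margin, and the log2 fold change was 0.059 ± 0.022 (SE, limma, adjusted p = 0.0327). The call was kept in only 2 of 8 fits that left out a library, with values from 0.052 to 0.073, and the sign turned to -0.032 (limma, adjusted p = 0.177) without the GC content and length trend. *Sf3b2*, the most abundant SF3 gene per length at 35.4 FPKM in the controls, had a log2 fold change of -0.0081 (limma, adjusted p = 0.81). The log2 ratio of *Sf3b1* to *Sf3b3* was 1.76 ± 0.03 (SD, n = 4) in the controls and 2.03 ± 0.04 in the Cre samples, without overlap.

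The *Lsm* proteins form 2 rings that share most subunits. The ring with *Lsm8* binds the U6 RNA in the nucleus, and the ring with *Lsm1* promotes mRNA decapping in the cytoplasm. *Lsm6*, on chr8:78804865-78821140 (GRCm38, minus strand), had 576, 587, 588 and 555 normalized counts in the floxed controls and 453, 414, 465 and 456 in the Cre samples. These groups did not overlap, and the log2 fold change of -0.37 ± 0.05 (SE, limma, adjusted p = 1.12e-05) was the second lowest of the 58. *Lsm4*, with the highest level per length of the family, went from 31.6 to 27.0 FPKM (log2 fold change -0.24, limma, adjusted p = 3.66e-05), and *Lsm3* was called at -0.21 with overlapping groups.

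*Lsm7* was the most uneven of the called genes. Its normalized counts were 286, 293, 287 and 312 in the controls and 306, 246, 212 and 217 in the Cre samples, so that the first Cre library lay within the controls (log2 fold change -0.28 ± 0.09, SE, limma, adjusted p = 0.0214). Its call was kept in 5 of 8 fits that left out a library, being lost without floxed replicate 4, Cre replicate 3 or Cre replicate 4 (limma, adjusted p up to 0.0875), and was lost without the GC content and length trend (limma, adjusted p = 0.0606). The subunits that tell the rings apart were not called. *Lsm8* had 746 ± 16.9 and 748 ± 39.0 normalized counts (SD, n = 4 per group) and a log2 fold change of 0.0036, and *Lsm1* had 579 ± 9.09 and 539 ± 32.1 and a log2 fold change of -0.10 (limma, adjusted p = 0.12). *Lsm2* and *Lsm5* had log2 fold changes of -0.087 ± 0.058 and -0.14 ± 0.10 (SE) and were not called, *Lsm5* being the gene with the fewest reads of the 58.

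Ratios between paralogs and partner subunits were taken for 10 pairs picked after the values were seen, and they are given as a description. None passed 0.05 in an exact two-sided permutation test with Benjamini-Hochberg adjustment over the 10 pairs (lowest adjusted p = 0.0571). For pairs picked in this way such a test could not count as evidence either way. In 5 of the 10 the ratios of the groups did not overlap. How often other pairs of genes do so was not examined. Besides the ratios of *Hnrnpl* to *Hnrnpll* and *Sf3b1* to *Sf3b3*, the log2 ratio of *Hnrnpd* to *Hnrnpdl* was -0.56 ± 0.06 (SD, n = 4) in the controls and -0.72 ± 0.04 in the Cre samples, that of *Srsf4* to *Srsf6* was -1.65 ± 0.07 and -1.47 ± 0.06, and that of *Hnrnpul1* to *Hnrnpul2* was -0.90 ± 0.01 and -0.83 ± 0.02, all without overlap. For *Srsf3* and *Srsf7* the log2 ratio was 0.55 ± 0.08 in the controls and 0.55 ± 0.05 in the Cre samples. The log2 ratio of *Hnrnpa1* to *Hnrnpa2b1* was -1.83 ± 0.04 and -1.85 ± 0.02, so these relatives stood in nearly the same proportion in both genotypes.

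Properties that the choice of genes did not use were set beside the log2 fold changes as a description across the 58 genes, which share libraries and are not independent. The log2 fold change went with log2 exon length (Pearson r = 0.36, Spearman rho = 0.36), hardly with GC content (r = -0.14, rho = -0.16) and not visibly with the level per length (r = -0.029, rho = -0.019). Both genes called higher have long exons in all, 11677 bases for *Hnrnpll* and 11370 for *Sf3b1*, but *Hnrnpr* (22199 bases, the longest), *Hnrnpu* (11599) and *Sf3b3* (10919) were called lower. With the GC content and length trend removed from each library, 41 genes were called lower and none higher by limma. Of these, 39 were shared with the 44 called lower before the removal, and *Hnrnpul2* and *Srsf10* were gained. The 7 calls lost were those of *Hnrnpf*, *Hnrnpll*, *Lsm7*, *Sf3b1*, *Sf3b5*, *Snrpf* and *Snrpg*.

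**Figure D4:**
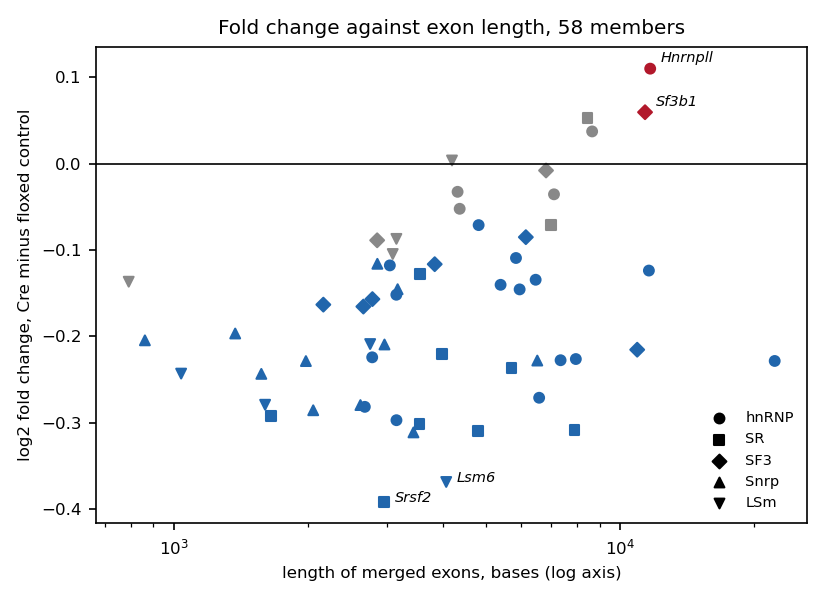
Log2 fold change (y axis, Cre minus floxed control) against the merged exon length in bases (x axis, log scale) for the 58 genes, with 1 marker shape per family and the colours of calls as in the plot of fold changes. *Hnrnpll* and *Sf3b1*, in red, lie at 11677 and 11370 bases, while *Srsf2* and *Lsm6*, the lowest 2, have 2958 and 4076.

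Promoter sequences, from 250 bases before to 50 after an annotated start, were found for 50 of the 58 genes in RefSeq (GRCm38.p6). The letters CCGGAAG, the core of sites bound by ETS factors, occurred on either strand in 17 of these 50 (34.0%), in 20.9% of the 9710 tested genes with a promoter and in 9.93% of all 27025. CACGTG, the E-box, occurred in 6 (12%, against 11.9% of tested and 8.09% of all genes), and TGACGTCA, the cAMP response element, in 3 (6.0%, against 3.6% and 2.03%). Of the 11 genes with a match between 100 bases before and 20 after the start, 5 are shown as examples, 4 from SR, *Snrp* and SF3 genes that were called lower and *Srsf11*, which was not, picked after their values were seen. Each runs from 100 bases before to 20 bases after the start, 5′ to 3′ on the strand of the gene, with the match in capitals (CTTCCGG where it is on the other strand). The windows are chr12:80945399-80945518 (plus) for *Srsf5*, chr17:27839987-27840106 (plus) for *Snrpc*, chr2:143062969-143063088 (plus) for *Snrpb2*, chr10:80798635-80798754 (plus) for *Sf3a2* and chr3:158031729-158031848 (minus) for *Srsf11*.
Srsf5: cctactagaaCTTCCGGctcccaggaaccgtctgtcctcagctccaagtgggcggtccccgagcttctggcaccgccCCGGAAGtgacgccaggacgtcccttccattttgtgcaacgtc
Snrpc: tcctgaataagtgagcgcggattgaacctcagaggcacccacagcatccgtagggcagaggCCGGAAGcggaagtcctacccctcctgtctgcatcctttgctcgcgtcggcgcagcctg
Snrpb2: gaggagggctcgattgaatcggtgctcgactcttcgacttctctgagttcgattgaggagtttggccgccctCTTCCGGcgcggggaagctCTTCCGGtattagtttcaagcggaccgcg
Sf3a2: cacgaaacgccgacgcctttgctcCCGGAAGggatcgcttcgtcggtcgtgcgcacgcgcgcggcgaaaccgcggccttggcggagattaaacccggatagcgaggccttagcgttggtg
Srsf11: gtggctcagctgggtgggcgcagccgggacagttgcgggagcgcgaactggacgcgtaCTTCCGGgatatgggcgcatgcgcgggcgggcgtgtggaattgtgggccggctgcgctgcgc

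Calls were made among genes with and without these letters. Of the 17 with CCGGAAG, 13 were called lower, with a median log2 fold change of -0.16, and of the 33 without it, 26 were called lower, with a median of -0.21. A match is not evidence of binding.

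Splicing genes outside the 5 families were also lower more often than higher. Of 144 tested genes in 9 lists, 60 (41.7%) were called lower and 14 higher, with a median log2 fold change of -0.075. The shares over all tested genes were 20.3% lower and 20.8% higher. The lists were made with earlier results of these data known. Factors of the 3′ splice site and branch point had 8 of 12 called lower and none higher, with *U2af2*, which binds the polypyrimidine tract, lowest at -0.30 (3628 ± 59.2 against 2939 ± 82.5 normalized counts, SD, n = 4 per group). The exon junction complex, deposited on spliced mRNA, had 6 of 8 lower, led by *Rbm8a* at -0.26, and 1 higher, *Casc3* at 0.12. Relatives of the hnRNPs with other names had 15 of 28 lower and 3 higher, the highest being *Ptbp2* at 0.15.

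The remaining lists had between 22.2% and 41.2% of their genes called lower, against 20.3% of all tested genes. The minor spliceosome proteins (22.2%) and the SR protein kinases and phosphatases (23.1%) were near that share. Other U snRNP proteins had 7 of 17 lower and 2 higher, from *Snrnp40* at -0.26 to the helicase *Snrnp200* at 0.14, which had 6576 ± 338 normalized counts in the controls and 7218 ± 45.2 in the Cre samples. The Prp19 complex and step factors had 8 of 24 lower and 1 higher, from *Ppil1* at -0.33 to *Slu7* at 0.10. Assembly factors of the Sm ring had 5 of 15 lower and none higher, led by *Wdr77* of the methylosome, which modifies Sm proteins, at -0.33. Minor spliceosome proteins had 2 of 9 lower and 1 higher, from *Rnpc3* at -0.22 to *Zrsr1* at 0.25. The SR protein kinases and phosphatases had 3 of 13 lower and 1 higher, from *Srpk3* at -0.32 to *Clk3* at 0.074, and the SR-like proteins were divided, with 6 of 18 lower and 5 higher, from *Luc7l3* at -0.18 to *Srrm2* at 0.21.

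**Figure D5:**
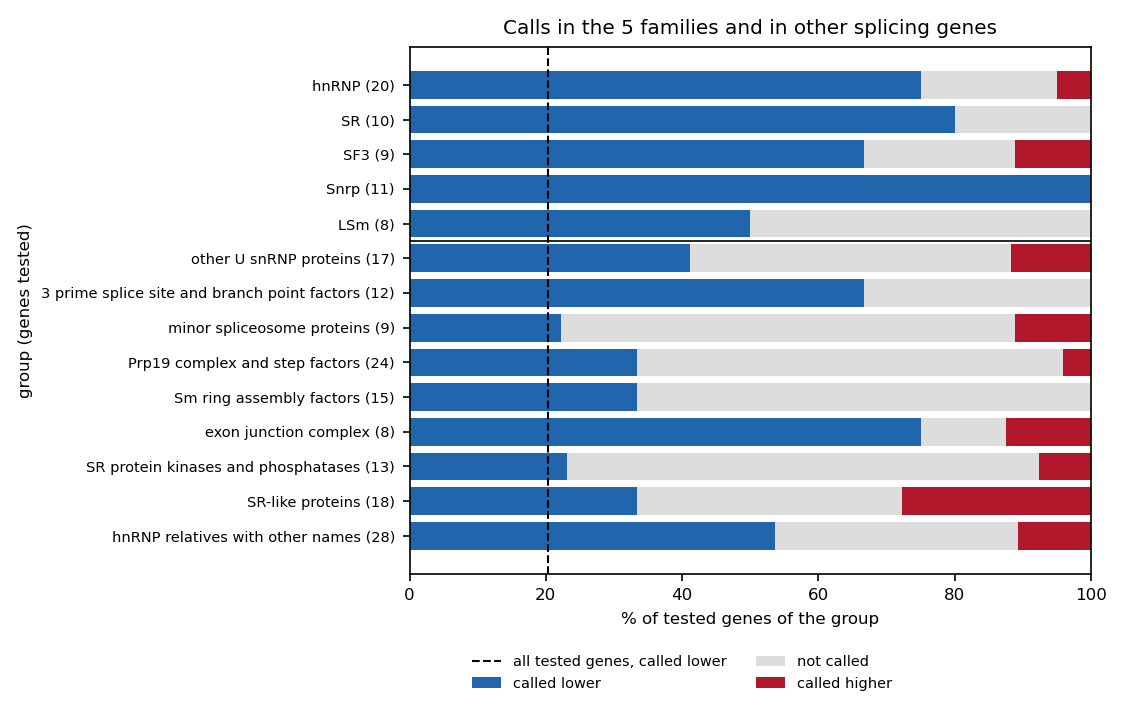
Share of the tested genes of each group (y axis, number tested in brackets) that was called lower (blue), not called (grey) or called higher (red), in percent (x axis), for the 5 families above the black line and the 9 other lists below it. The dashed line marks the 20.3% of all tested genes that were called lower. All 11 *Snrp* genes are blue, and the SR-like proteins have the widest red part.

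A list of proliferation genes also differed between the genotypes. The 12 genes summed to 39094 to 40826 normalized counts in the floxed controls and to 32947 to 33853 in the Cre samples. The replication genes *Pcna* and *Mcm2* to *Mcm7* were its 7 members called lower, and *Mki67*, *Top2a*, *Ccna2* and *Ccnb1*, known for peaking later in the cell cycle, were called higher. In bulk RNA, fewer cells of a given state and less RNA per cell cannot be told apart. The B cell marker *Cd79b* was also lower, at 231 ± 25.6 against 149 ± 16.2 (SD, n = 4 per group), *S100a8* was higher as given above, and reads of mitochondrial genes made up 1.15% to 1.26% of the controls and 1.14% to 1.18% of the Cre samples. The part of these differences in the values of the splicing genes was not tested.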

How the data were processed

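RNA-seq libraries of 4 *Phgdh* fl/fl and 4 *Phgdh* fl/fl *Cx3cr1*-Cre TEM samples were compared, grouped by the titles the submitters gave. The authors prepared directional libraries, aligned the single-end reads to mm10 (TopHat2) and used HTSeq 0.6 for counting per gene. What the authors deposited for each sample is a signal, read counts over that library's size factor (normalized counts), although named FPKM, and whole reads were recovered for 100% of 144353 values above 0 (within 0.05 of a whole number). Their own comparison, deposited as a log2 fold change, its standard error, a Wald score and raw and adjusted p-values, was not used.

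Log2(normalized count + 1) of the 13629 genes with a mean of at least 10 was fitted with limma 3.58.1 in R 4.3.3 (lmFit, eBayes with trend, no covariate, two-sided, Benjamini-Hochberg adjustment). Log2 fold changes are on that scale and differ by little from those of the counts at these levels. FPKM came from recovered reads and the merged exon lengths of GENCODE M21, and pseudogene copies were sought there with blastn 2.17.0 (at least 90% identity over 200 bases). The fits were tested on simulated counts.

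Alternatives were a pseudocount of 0.1, no filter, a minimum of 100, scaling to total reads or by TMM, edgeR 4.0.16, DESeq2 1.42.0, a replicate block, removal of a loess trend on GC content and length (span 0.5), and leaving out each library. In each family the 3 lowest and 2 highest log2 fold changes and the highest level per length were named by rule, in each other list the lowest and highest called gene (1 of them is not reported here), and any further gene after its values were seen. Members and lists were chosen with earlier results of these data known. The 4 samples of a group are described as biologically independent, and whether each came from a separate mouse is not stated in the sources used here. The limma p-values set the difference between the groups against the spread within them, with variances moderated by a trend over all tested genes. Precision is limited by that spread in all genes and, in those with few reads, also by counting.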

Additional observations from a re-analysis of the deposited data

Results flagged for a closer look

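In 5 of 118 groups of 4 libraries, 1 library stood apart from the other 3 by Dixon's criterion, and chance alone flags about 1 in 20 groups. *Srsf6* had 4531 normalized counts in Cre replicate 2 against 4633 to 4646 in the other Cre samples, and *Srsf11* had 7567 in Cre replicate 3 against 7201 to 7240. *Snrpd2* had 959 in floxed replicate 4 against 856 to 866 in the other controls. *Lsm3* had 381 in floxed replicate 1 against 438 to 446, which is the value that made its groups overlap. *Lsm5* had 136 in Cre replicate 4 against 176 to 183, and it was not called with all 8 libraries. The 5 values came from 5 different libraries.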

How the results depend on the processing

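Between 41 and 44 members were called lower under the 9 settings other than leaving out a library, and between 37 (without Cre replicate 4) and 45 (without floxed replicate 1) when 1 library was left out. No call turned to the opposite direction. With the GC content and length trend removed, 0 members were called higher, the hnRNP and *Snrp* medians were -0.17 and -0.17, other splicing genes called higher numbered 8, and the log2 fold changes of *Hnrnpul1*, *Srsf11*, *Sf3b1* and *Lsm8* became -0.023, -0.0045, -0.032 and -0.0039. Scaling to total reads put *Sf3b2* at 0.0070. That scaling gave all tested genes a median of 0.013, against -0.0018. Leaving out a library gave 1 to 3 members called higher (1 without each library except floxed replicate 1, with 3, and Cre replicate 3, with 2), a median over members of -0.19 to -0.15, an SR median of -0.27 to -0.24, *Lsm8* at -0.021 to 0.030 and *Sf3b2* at -0.022 to 0.0037. *Phgdh* was called lower in every setting in which it was tested (it failed the minimum of 100), at -2.29 to -1.88. With the replicate number as a replicate block, 44 members were called lower and 2 higher, and the same 44 were shared with the fit without it. Same-numbered samples deviated with correlations of -0.11, 0.19, 0.22 and -0.088 over 10515 genes. The labels do not say whether a number marks a shared origin, and these mixed values cannot decide it. The genes with the fewest reads, *Lsm5*, *Snrpg* and *Lsm7*, had the widest standard errors, at 0.10, 0.081 and 0.094 on the log2 scale. In *Lsm7* the Cre libraries were also far apart, with an SD of 43.4 normalized counts against 11.9 in the controls. The causes of these changes were not tested.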
